A study of Mus musculus with 8 samples.

Results

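The genes described here encode the integrins by which white blood cells hold on to vessel walls, the adaptor proteins that link those integrins to the cell's interior, and one of their ligands. There are 10 of them among the 23358 gene rows of the deposited table: the integrin subunits Itgb2, Itgam, Itgal, Itgax and Itga4, the adaptors and signalling proteins Fermt3, Tln1, Parvg and Vav1, and the ligand Icam1. They were picked by name, as a family, with results of the comparison below known: Parvg had come soon after the genes that passed the test when ranked by unadjusted p, and Itgb2 had been named earlier too. Their values in that comparison are therefore a description, and the p-values printed with them are no independent evidence. Bulk RNA was sequenced from the vein that drains an arteriovenous fistula, a surgical joining of carotid artery and jugular vein, in mice of strain C57BL6J that all had chronic kidney disease (CKD). The fistula was made 28 days after CKD was induced, and the vein was collected 3 days later. In the 4 MSC samples the adventitia, the outer layer of that vein, had been given 250000 mesenchymal stem cells (MSCs), taken from a C57 animal of the same sex. The 4 vehicle samples shared strain, CKD, fistula and time but had vehicle in place of cells. The composition of the vehicle and the age of the animals are not stated in the labels. Donor cells were of C57 origin too, so their RNA cannot be told apart from the vein's own. Nothing in the labels ties a sample to a separate animal, and p-values cover only the spread between these samples, which may be technical.

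Integrins are pairs of an alpha and a beta chain that cross the cell membrane. Leukocytes carry a family built on the beta2 chain, the product of Itgb2 (CD18): with alpha L (Itgal, CD11a) it forms LFA-1, with alpha M (Itgam, CD11b) Mac-1, and with alpha X (Itgax, CD11c) a receptor of dendritic cells and many macrophages. LFA-1 and Mac-1 bind ICAM-1, the product of Icam1, on activated endothelium, and so arrest leukocytes that roll along an inflamed vein. The alpha 4 chain (Itga4) pairs instead with beta1 or beta7 and binds VCAM-1 or MAdCAM-1. The integrin is switched on from inside the cell, when talin (Tln1) and kindlin-3 (Fermt3) dock on the tail of the beta chain. Gamma-parvin (Parvg) is the parvin of blood cells and sits in the complex of integrin-linked kinase, PINCH and parvin that ties integrins to actin. Vav1, an exchange factor that switches on Rac, carries the signal onward in blood cells.

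Values are RPKM, read numbers scaled by gene length in kilobases and by sequencing depth, so levels of genes of different length can be set side by side. Whole reads recovered from the RPKM steps came to between 26.9 and 38.2 mega-reads per sample. For the least expressed of the genes, Parvg, 1261, 1155, 1356 and 1104 reads lay behind the values of MSC replicates 1 to 4, against 592, 754, 771 and 624 reads in vehicle replicates 1 to 4. Marker genes of the vessel wall were present. The 10 endothelial genes summed to between 422 and 714 RPKM with MSCs and between 566 and 690.2 with vehicle, and 8 smooth muscle genes to between 225 and 293 RPKM with MSCs and between 165 and 296 with vehicle. Markers of fat and skeletal muscle were present too, unevenly: 10 adipocyte genes summed to between 432 and 1993.3 RPKM with MSCs and between 3426 and 4952 with vehicle, without overlap, and 10 skeletal muscle genes to between 11.3 and 825 RPKM with MSCs and between 5.12 and 615 with vehicle.

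Promoter sequence is shown for 3 members whose start sites hold a motif searched for, so that the letters behind each match can be read. RefSeq promoter windows on GRCm38.p6, from 250 bases before to 50 after each start, were at hand for 8 of the 10 genes (9 windows, 2 of them for Parvg); Itgb2 and Itgal had none in that table. The motif GAGGAAGT, the core bound by the myeloid and lymphoid transcription factor PU.1, was searched on both strands. It stood in 2 of the 9 windows, that of Vav1 among them, and in 3.2% of 32851 windows of all genes. The shorter GAGGAAG, which overlaps it and was added after the sequences had been seen, stood in 13.6% of all windows and also in that of Itgam, where it stood a second time outside the stretch printed. Capitals mark GAGGAAGT in Vav1, GAGGAAG in Itgam and, in Icam1, GGAAATTCC, an NF-kB type sequence likewise added after the sequences had been seen and present in 0.317% of all windows. The NF-kB consensus chosen at first, a longer motif, stood in 0 of the 9 windows and in 0.155% of all. All 3 stretches lie on the plus strand and end at position -1, the base before the start: Vav1 at chr17:57279000-57279099, Itgam at chr7:128062540-128062639 and Icam1 at chr9:21015760-21015939.
Vav1: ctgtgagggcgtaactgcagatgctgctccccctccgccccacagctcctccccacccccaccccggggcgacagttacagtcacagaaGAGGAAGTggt
Itgam: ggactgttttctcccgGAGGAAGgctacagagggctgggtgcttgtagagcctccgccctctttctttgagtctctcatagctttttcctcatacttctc
Icam1: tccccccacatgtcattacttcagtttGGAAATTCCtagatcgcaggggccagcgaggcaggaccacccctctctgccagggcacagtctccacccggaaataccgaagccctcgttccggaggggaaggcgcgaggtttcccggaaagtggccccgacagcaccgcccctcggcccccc
The motif in Vav1 covers positions -11 to -4, that in Itgam -84 to -78 and that in Icam1 -153 to -145. The motif GGGGCGG, bound by Sp1, stood in 4 of the 9 windows, those of Icam1, Itga4 and Vav1 among them, and in 23.2% of all windows. A match describes these letters and does not show that a factor binds.

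The beta2 chain and alpha M were the most abundant members in both groups, while alpha L and alpha X were among the least. Of these 4 chains, all but alpha M lay higher in every MSC vein than in any vehicle vein. Itgb2 was at 138, 134, 95.02 and 104 RPKM in MSC replicates 1 to 4, against 74.7, 83.5, 89.8 and 70.7 in vehicle replicates 1 to 4. The lowest MSC sample, replicate 3, stood just above the highest vehicle sample, and the groups did not overlap. Means were 118 ± 21.7 RPKM with MSCs and 79.7 ± 8.58 with vehicle (SD, n = 4 each), or 0.55 as log2 fold change (SE 0.14, limma adjusted p = 0.116), which did not pass the threshold of 0.05. Fold changes here and below are of RPKM + 1, in log2 units, and understate the change of low genes.

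Itgam, the alpha M chain of Mac-1 on neutrophils, monocytes and macrophages, was by far the most abundant alpha chain. It was at 113, 121, 86.0 and 102 RPKM in MSC replicates 1 to 4, against 97.6, 86.9, 83.0 and 68.0 in vehicle replicates 1 to 4, and the groups overlapped because MSC replicate 3 lay below vehicle replicates 1 and 2. Its log2 fold change was 0.33 (SE 0.14, limma adjusted p = 0.277). Itgax, the alpha X chain, was at 16.2, 10.9, 10.8 and 10.1 RPKM in MSC replicates 1 to 4, against 3.69, 5.32, 7.34 and 8.82 in vehicle replicates 1 to 4. Every MSC sample was above every vehicle sample, MSC replicate 1 stood well above the other MSC samples, and the vehicle samples spread widely, with a coefficient of variation of 35.8%. The log2 fold change of Itgax was 0.86 (SE 0.23, limma adjusted p = 0.125).

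Itgal, the alpha L chain of LFA-1, present on nearly all leukocytes, was at 11.05, 12.8, 12.4 and 9.62 RPKM in MSC replicates 1 to 4, against 2.56, 6.64, 7.18 and 9.11 in vehicle replicates 1 to 4. The groups did not overlap, though the highest vehicle sample came close to the lowest MSC sample. Its log2 fold change was 0.85 (SE 0.28, limma adjusted p = 0.186), and without vehicle replicate 1, whose value was lowest by far, it was 0.53. Marker genes of T and NK cells, which carry much LFA-1, were low: Cd3e, a chain of the T cell receptor complex, ran from 0.155 to 1.26 RPKM with MSCs and from 0.226 to 1.10 with vehicle. The 13 T and NK cell genes summed to between 5.87 and 15.8 RPKM with MSCs and between 5.35 and 18.2 with vehicle, and the groups overlapped. The part of T and NK cells in the Itgal values was not tested.

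Taken per kilobase, the alpha chains M, L and X added up to about the level of the beta2 chain they share. The ratio of their sum to Itgb2 averaged 1.10 ± 0.0693 with MSCs and 1.22 ± 0.126 with vehicle (SD, n = 4 each), and the groups overlapped. Alpha M made up 81.7% ± 2.42 of the 3 with MSCs and 86.5% ± 6.18 with vehicle. In the vehicle samples the make-up moved widely: alpha M was 93.99, 87.9, 85.1 and 79.1% of the sum in vehicle replicates 1 to 4, and alpha X 3.55, 5.38, 7.52 and 10.3%. Among the vehicle samples, replicate 1 thus had the most Itgam and the least Itgal and Itgax, and replicate 4 the least Itgam and the most Itgal and Itgax. In the MSC samples alpha M made up between 78.8 and 83.8%, a narrower range whose lower end lay just under that of the vehicle samples.

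**Figure D1:**
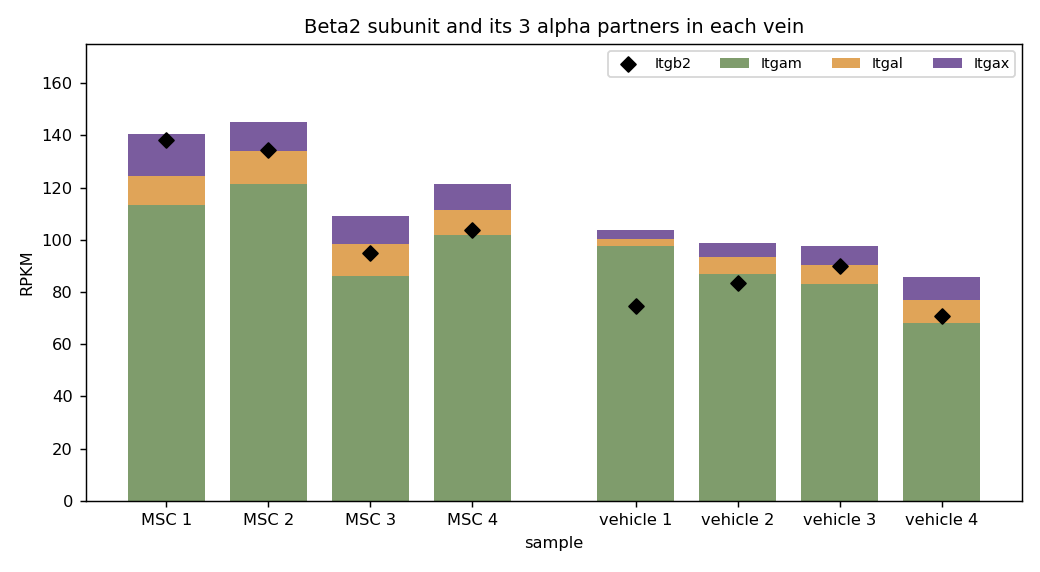
RPKM of Itgam, Itgal and Itgax stacked for each of the 4 MSC and 4 vehicle samples, with Itgb2 as a diamond. The stacks reach between 109 and 145 RPKM in MSC samples and between 85.9 and 104 in vehicle samples, and Itgb2 lies near the top of most stacks but well below it in vehicle replicate 1.

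Itga4, whose chain does not pair with beta2, was nearly level. It was at 10.0004, 9.38, 11.04 and 11.6 RPKM in MSC replicates 1 to 4, against 9.21, 10.9, 10.96 and 9.99 in vehicle replicates 1 to 4, and the groups lay across each other. Its log2 fold change was 0.03, with a 95% interval of -0.17 to 0.23 (limma adjusted p = 0.901), and its sign changed with median-of-ratios scaling, with sample weights and without MSC replicate 4 or vehicle replicate 1. Of its partner chains, Itgb1, which most cell types express, averaged 183 ± 3.76 RPKM with MSCs and 184 ± 24.0 with vehicle (SD, n = 4 each), while Itgb7, a beta chain of lymphocytes and other leukocytes, averaged 12.0 ± 0.785 RPKM with MSCs and 8.77 ± 0.543 with vehicle. The log2 fold change of Itgb7 was 0.42 (SE 0.08, limma adjusted p = 0.0608), with every MSC sample above every vehicle sample, and did not pass. Itgb7 passed with quantile normalization (limma adjusted p = 0.0376) and with sample weights (limma adjusted p = 0.0495).

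Among the adaptors, Parvg stood furthest apart between the groups. It was at 10.98, 8.85, 9.06 and 8.74 RPKM in MSC replicates 1 to 4, against 4.56, 6.02, 6.23 and 5.65 in vehicle replicates 1 to 4. The lowest MSC sample lay well above the highest vehicle sample, and MSC replicate 1 stood above the other 3 MSC samples, which lay close together. Means were 9.41 ± 1.06 RPKM with MSCs and 5.62 ± 0.745 with vehicle (SD, n = 4 each), a ratio of 1.68, and 0.66 as log2 fold change (SE 0.11, limma adjusted p = 0.0534). By unadjusted p it ranked 33 among the 12129 genes tested, and its adjusted p ran from 0.0357 to 0.170 over the alternatives tried. It passed without MSC replicate 3, with both scaling alternatives and with sample weights.

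The other parvins, which most tissues express, lay closer to 0. Parva (alpha-parvin) averaged 19.3 ± 1.51 RPKM with MSCs and 20.5 ± 2.04 with vehicle (SD, n = 4 each), with a log2 fold change of -0.08 and a 95% interval of -0.29 to 0.14. Parvb (beta-parvin) averaged 17.5 ± 4.55 RPKM with MSCs and 15.9 ± 1.73 with vehicle, with a log2 fold change of 0.10 and an interval of -0.28 to 0.48, and it reversed sign without MSC replicate 2 (-0.04). Parvg was thus the least abundant of the 3 parvins in these veins on the per-length scale, by group means. The difference between the parvins' fold changes was not tested.

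Kindlin-3, encoded by Fermt3 and needed for integrin activation in leukocytes and platelets, was at 36.8, 40.5, 32.7 and 37.6 RPKM in MSC replicates 1 to 4, against 31.8, 27.4, 32.7 and 24.6 in vehicle replicates 1 to 4. The groups met only at MSC replicate 3 and vehicle replicate 3, and the log2 fold change was 0.34 (SE 0.11, limma adjusted p = 0.185). Fermt2, the kindlin of most other cells, averaged 30.8 ± 3.13 RPKM with MSCs and 34.1 ± 4.83 with vehicle (SD, n = 4 each), with a log2 fold change of -0.14. Fermt1, the epithelial kindlin, was at most 0.0894 RPKM in any MSC and 0.0171 in any vehicle sample.

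Vav1 showed a similar picture at a lower level. It was at 22.4, 22.2, 19.1 and 21.3 RPKM in MSC replicates 1 to 4, against 15.7, 16.9, 19.1 and 17.0 in vehicle replicates 1 to 4. Only vehicle replicate 3 reached the lowest MSC sample, again replicate 3. The log2 fold change was 0.29 (SE 0.09, limma adjusted p = 0.156). Its widely expressed paralogues Vav2 and Vav3 averaged 5.95 ± 0.414 and 6.23 ± 0.511 RPKM in MSC, against 5.48 ± 0.546 and 6.41 ± 0.942 in vehicle veins (SD, n = 4 each). Their log2 fold changes were 0.10 for Vav2 and -0.03 for Vav3; that of Vav3 changed sign without MSC replicate 3 or vehicle replicate 3.

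Talin 1, found in nearly all cells, gave no such order. Tln1 was at 53.1, 79.6, 65.6 and 72.2 RPKM in MSC replicates 1 to 4, against 56.1, 56.9, 63.9 and 56.2 in vehicle replicates 1 to 4. MSC replicate 1 had the lowest value of all 8 samples and the other 3 MSC samples the highest. The log2 fold change was 0.20, with a 95% interval of -0.08 to 0.48 (limma adjusted p = 0.461); it was 0.31 without MSC replicate 1 and 0.12 without MSC replicate 2. Tln2, the second talin, had 0.08.

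Icam1, the ligand that endothelium and leukocytes present to LFA-1 and Mac-1, lay close to level between the groups. It was at 36.7, 44.9, 47.5 and 31.5 RPKM in MSC replicates 1 to 4, against 37.0, 40.7, 36.3 and 42.9 in vehicle replicates 1 to 4. The MSC samples held both the highest and the lowest value. The log2 fold change was 0.02, with a 95% interval of -0.28 to 0.31 (limma adjusted p = 0.962), and its sign changed with both scaling alternatives, with voom, and when MSC replicate 2 or 3 or vehicle replicate 1 or 3 was left out. Among other ligands, Vcam1, which binds alpha 4 integrins, had -0.07 (95% interval -0.31 to 0.17), Icam2, a further ligand of LFA-1, 0.16 (-0.35 to 0.66), and the junctional molecules Jam2 and Jam3 -0.31 and 0.10; Icam2 was at -0.06 without vehicle replicate 1.

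**Figure D2:**
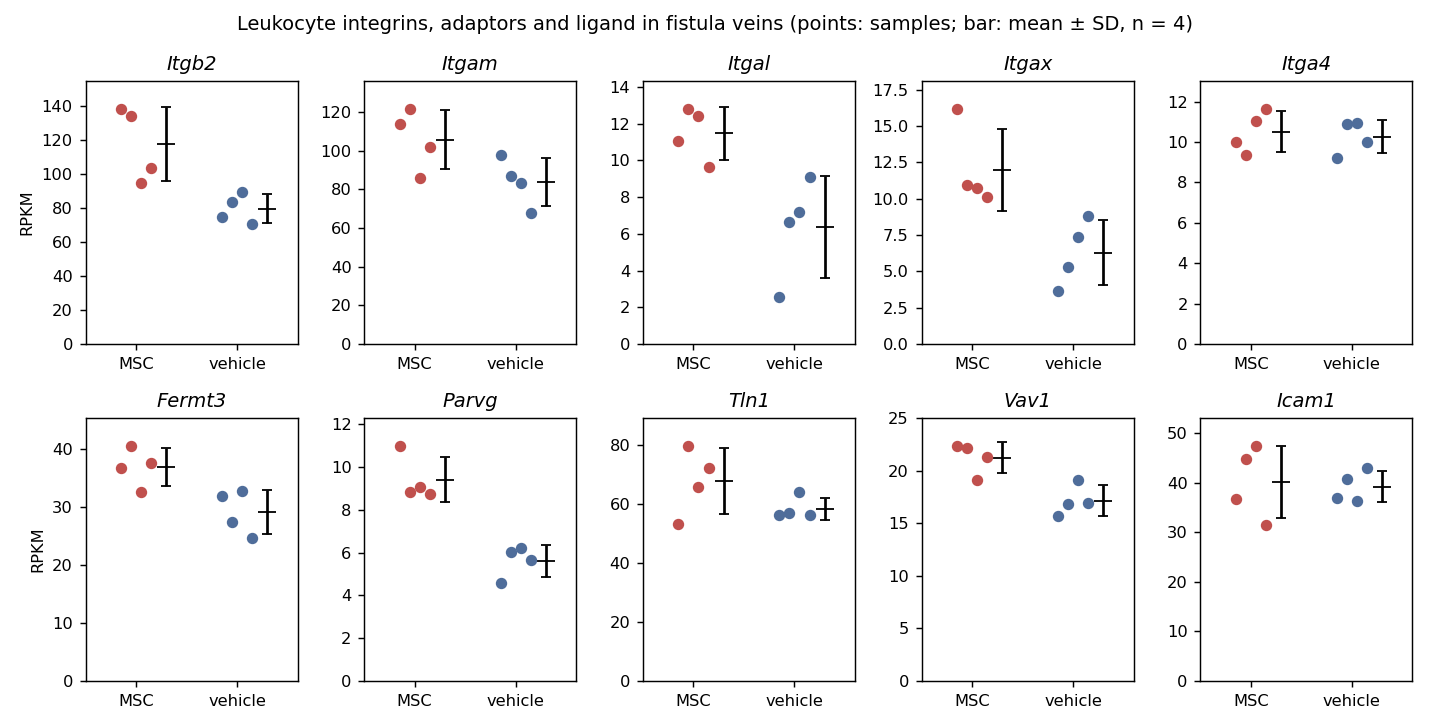
RPKM of each of the 10 genes in the 4 MSC and 4 vehicle samples, as points, with the mean and SD beside them; every axis starts at 0. In Itgb2, Itgal, Itgax and Parvg the MSC samples lie above all vehicle samples, while in Itga4 and Icam1 the groups lie across each other.

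Over the 10 genes, all of which had a mean of at least 1 RPKM and so entered the test, 0 passed in limma, where 0.231% of the 12129 genes tested passed, 0.0247% as higher in MSC and 0.206% as lower. The count was also 0 with voom on recovered reads, and 7 of the 10 had an unadjusted p under 0.05, all higher in MSC, where 10.1% of all genes tested were higher and 6.36% lower at that p. In 4 of the 10, every MSC sample was above every vehicle sample, as in 5.61% of all genes tested, and in 0 every MSC sample was below, as in 4.17%; the groups did not overlap in either direction in 9.78%. The median log2 fold change of the 10 was 0.33, beside 0.04 over all genes tested. Since this contrast entered the choice of genes, nothing is read from these shares. By mean level, Itgb2 came first in MSC veins, then Itgam, Tln1, Icam1, Fermt3, Vav1, Itgax, Itgal, Itga4 and Parvg; the sample ranges of neighbours overlapped for Itgb2 and Itgam, for Icam1 and Fermt3 and from Itgax on. In vehicle veins the order ran from Itgam at 83.9 ± 12.3 RPKM through Itgb2, Tln1, Icam1, Fermt3, Vav1, Itga4, Itgal and Itgax to Parvg at 5.62 ± 0.745 (SD, n = 4). The sample ranges of neighbours in that order overlapped for Itgam and Itgb2, for Itgal and Itgax and for Itgax and Parvg.

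**Figure D3:**
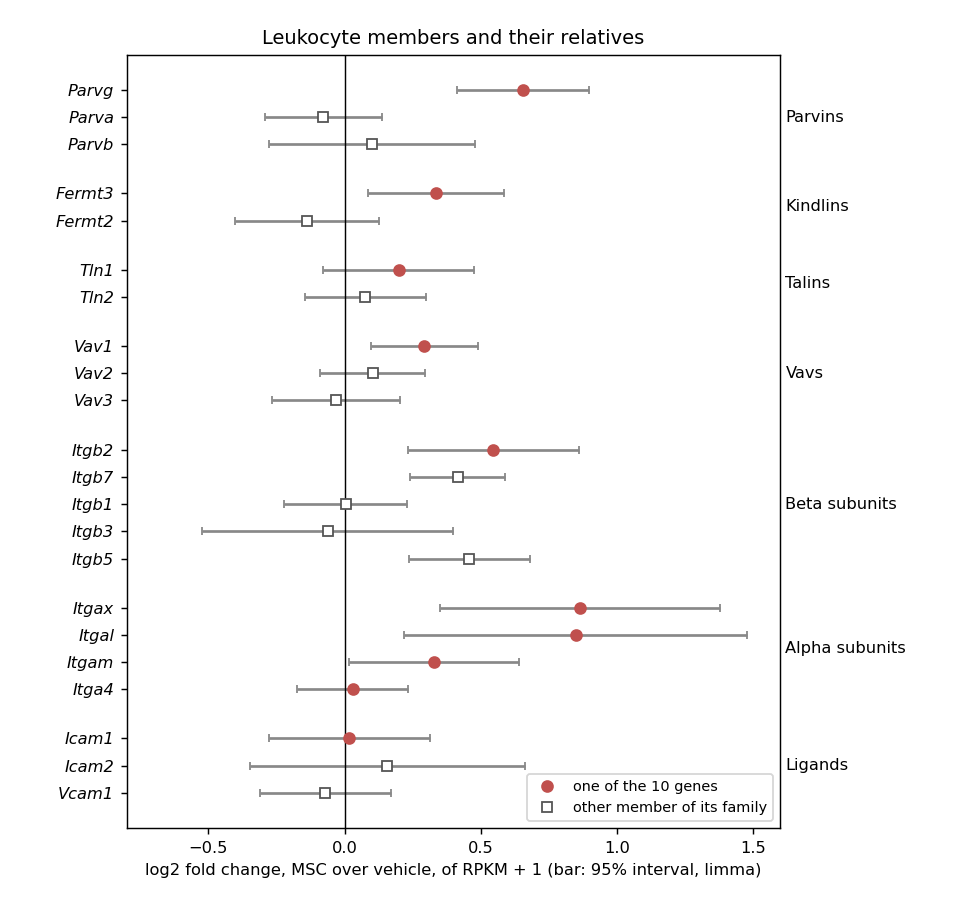
Log2 fold changes, MSC over vehicle, of RPKM + 1 with 95% intervals from limma for the leukocyte members (filled) and chosen relatives (open), grouped by family. Of the alpha subunits only the members are drawn, and others that were tested, some higher and some lower with MSCs, are left out. Parvg at 0.66 stands apart from Parva at -0.08 and Parvb at 0.10, Fermt3 at 0.34 lies above Fermt2 at -0.14, and Itgb7 and Itgb5 are the open symbols furthest to the right.

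The rest of the adhesion pathway was described from 6 lists with 89 genes, of which 76 were tested. The lists were set by role, with earlier results of these data known. None of the 76 passed in limma or with voom, where 0.231% of all genes tested passed in limma. As higher in MSC, 20 had an unadjusted limma p under 0.05, and 1 did as lower. Among all genes tested the shares at that p were 10.1% higher and 6.36% lower. Kinase and Rac signalling genes of leukocytes lay highest: all 20 had log2 fold changes above 0, as did 59.5% of all genes tested, with a median of 0.32. In 9 of the 20 every MSC sample was above every vehicle sample, beside the 5.61% of all genes given above. Since earlier results were known when the lists were written, nothing is read from these counts or those of the lists below. Coro1a, an actin regulator of leukocytes, averaged 129 ± 10.2 RPKM with MSCs and 85.2 ± 11.3 with vehicle (SD, n = 4 each), 0.60 on the log2 scale (limma adjusted p = 0.0608). Rac2, the Rac of blood cells on which Vav1 acts, had 0.60 (limma adjusted p = 0.0823), Dock2, another Rac exchange factor of leukocytes, 0.43 (limma adjusted p = 0.0823), and Pstpip1, a cytoskeletal adaptor, 0.33.

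Genes of integrin activation and linkage had a median of 0.10 over 22 tested. Of these, 18 lay above 0 and 4 below, where 59.5% of all genes tested lay above. Every MSC sample was above every vehicle sample in 4, as in 5.61% of all genes tested. The 4 genes of smallest p, named next, were all higher, while Lims2 was lowest at -0.41. Zyx, a focal adhesion protein, had 0.47, Flna, an actin crosslinker that binds integrin tails, 0.33, Rassf5, a Rap1 effector that activates LFA-1, 0.20, and its partner kinase gene Stk4 0.20. Other integrin subunits had a median of 0.00 over 15 tested, 8 above 0 and 7 below. There Itgb5, which pairs with alpha V, averaged 42.2 ± 3.98 RPKM with MSCs and 30.5 ± 2.95 with vehicle (SD, n = 4 each), 0.46 on the log2 scale (limma adjusted p = 0.0862), Itga7, a laminin receptor of muscle, had -1.06, and Itga1, a collagen receptor, -0.36. Itgb3, the beta chain of platelets, had -0.06 and changed sign without MSC replicate 1, vehicle replicate 1 or vehicle replicate 3 and with sample weights. Itgb1, at 0.00, lay just below 0 with both scaling alternatives. Itgad, the fourth alpha partner of beta2, was at most 0.0680 RPKM with MSCs and 0.0688 with vehicle. The 6 adaptor paralogues tested had a median of 0.02, and the 6 other ligands tested one of 0.02. Of 7 rolling and selectin genes tested, all above 0 with a median of 0.23, Selplg, the leukocyte ligand of P-selectin, averaged 41.7 ± 6.58 RPKM with MSCs and 28.7 ± 2.72 with vehicle (SD, n = 4 each), 0.52 on the log2 scale (limma adjusted p = 0.108). Gcnt1, which builds selectin ligands, had 0.23.

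Markers of leukocytes at large were set beside these values. The 12 pan-leukocyte genes summed to between 906 and 1085.5 RPKM with MSCs and between 657 and 825 with vehicle, without overlap. All 12 were tested and 0 passed. All had log2 fold changes above 0, as did 59.5% of all genes tested, with a median of 0.32. Lcp1, an actin bundler of leukocytes, had 0.48, Lsp1 0.37, Arhgdib 0.43 and Sfpi1, the table's name for the PU.1 gene, 0.44, while Ptprc (CD45), carried by all leukocytes, had 0.29. Ptprc was at 63.4, 61.0, 56.4 and 60.8 RPKM in MSC replicates 1 to 4, against 30.6, 57.9, 57.1 and 58.5 in vehicle replicates 1 to 4, so that vehicle replicate 1 was far below the other 3 vehicle samples, which lay within the MSC range; without it the log2 fold change of Ptprc was 0.06. In bulk RNA, more leukocytes and more of an RNA per leukocyte cannot be told apart. Among single lineages, 13 of 15 monocyte and macrophage genes were above 0 (median 0.24, Cd68 at 0.46, Lyz2 at 0.51 and Msr1 at 0.35) and the list summed to between 3508 and 5703 RPKM with MSCs and between 2846 and 3762 with vehicle. All 9 neutrophil genes tested were above 0 (median 0.79, Mmp9 at 1.29, Csf3r at 0.79 and S100a8 at 0.88), with summed levels of 615 to 1431 RPKM with MSCs and 252 to 846 with vehicle. Without vehicle replicate 1, Csf3r was at 0.46 and S100a8 at 0.43, and without MSC replicate 1 Lyz2 was at 0.34. Ccr7, a chemokine receptor of mature dendritic cells, had 0.56, beside a median of 0.04 over 5 dendritic cell genes tested. B cell genes summed to at most 14.7 RPKM with MSCs and 5.55 with vehicle. The 8 platelet genes summed to between 531 and 802 with MSCs and between 380 and 614 with vehicle, mostly through Pf4. Pf4 ran from 468 to 640 RPKM with MSCs and from 341 to 542 with vehicle. Gp9 ran only from 1.30 to 18.2 RPKM with MSCs, highest in replicate 2, and from 2.05 to 6.14 with vehicle. The 6 erythroid genes summed to between 533 and 684 with MSCs and between 470 and 1524 with vehicle. The part of these markers, and of the lower adipocyte genes such as Fabp4 (-2.17) and Lpl (-1.25), in the values of the 10 genes was not tested.

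Set against the leukocyte level of the same sample, which members were free of overlap depended on the genes that stood for leukocytes: Parvg and Itga4 with 12 pan-leukocyte genes, Parvg with 5 of them, and Itgal and Itgax with Ptprc alone. For each sample, the mean log2(RPKM + 1) of the 12 pan-leukocyte genes was subtracted from the member's own; that mean was itself 5.99 ± 0.10 with MSCs and 5.67 ± 0.10 with vehicle (SD, n = 4 each). Relative to it, Parvg was at -2.53, -2.72, -2.55 and -2.65 in MSC replicates 1 to 4, against -3.06, -2.91, -2.90 and -2.94 in vehicle replicates 1 to 4. The groups did not overlap, and the difference of the means was 0.34 log2 units. Relative to 5 of the 12 genes the difference in Parvg was 0.33 without overlap. Relative to Ptprc alone it was 0.37 with overlap, while Itgal and Itgax differed by 0.56 and 0.58 with every MSC sample above every vehicle sample. Vav1 came to -1.51 ± 0.05 with MSCs and -1.49 ± 0.06 with vehicle, overlapping, with the smallest pooled within-group SD of the 10. With the 12 genes, Fermt3 and Itgam differed by 0.02 each, Itgb2 by 0.23 and Itgax and Itgal by 0.55 and 0.53, all with overlapping groups. Itga4 lay below in every MSC sample, at -2.46 ± 0.21 with MSCs and -2.18 ± 0.03 with vehicle, a difference of -0.28; relative to the 5 genes or to Ptprc its groups overlapped. Without vehicle replicate 4, Itgal and Itgax also lay above in every MSC sample, and without MSC replicate 3, Itgb2 did. Tln1 and Icam1, which vessel cells also express, differed by -0.12 and -0.30 with overlapping groups. These are descriptions without a test, and the share of all genes free of overlap on this scale was not computed. The 12-gene mean was itself higher in every MSC sample than in any vehicle sample, by 0.31 between group means. A gene level between the groups therefore falls lower by subtraction, as with Itga4, whose log2 fold change before it was 0.03.

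**Figure D4:**
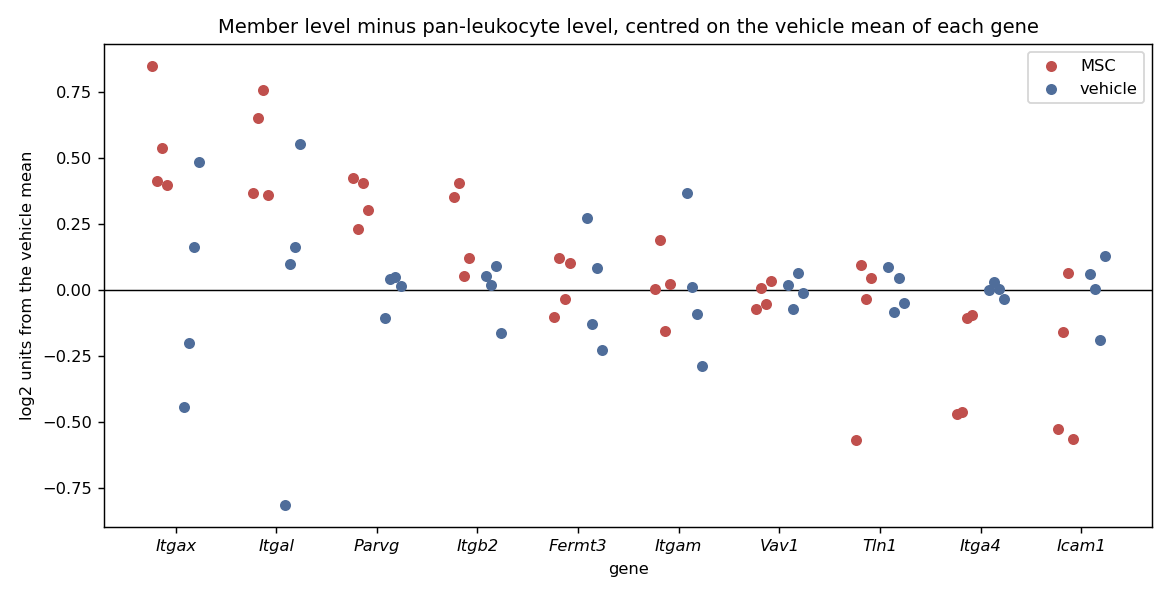
Level of each of the 10 genes minus the pan-leukocyte level of the same sample, in log2 units from the vehicle mean of that gene, for the 4 MSC and 4 vehicle samples. With this 12-gene level Parvg lies above and Itga4 below in every MSC sample, Vav1 varies least within groups, and vehicle replicate 1 is the low point of Itgax and Itgal. The 12-gene level itself was higher in every MSC sample, so a gene level between the groups falls lower here.

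Within groups, neither Parvg nor Itgb2 varied along with all the other members. Pairs among the remaining members were not looked at. Deviations from the group means of log2(RPKM + 1) were correlated over the 8 samples, as a description. Parvg had a Pearson r of 0.80 with Itgax, 0.65 with Vav1, 0.63 with Itgal and 0.55 with Itgb2. By closeness to Parvg among all genes tested, these ranked only 356, 1209, 1349 and 1979, so many other genes lay closer. With Itgam, Fermt3 and Tln1 the r of Parvg was -0.15, -0.17 and -0.40. Over the 12 pan-leukocyte genes its r ran from -0.59 with Laptm5 to 0.88 with Arhgdib. Itgb2 had 0.79 with Vav1 (rank 296 among all genes tested), 0.68 with Itgam (rank 776) and -0.02 with Tln1. Over all 12129 genes tested, the closest to Parvg were Trmt2b (0.97), Prdx1 (0.96), Fpgt (0.96), Sec61g (0.95) and Gm16039 (0.95), and the closest to Itgb2 were Rchy1 (0.99), Gapdh (0.98), Ostf1 (0.97), Fgf7 (0.97) and C130050O18Rik (0.97). Without the 2 samples farthest from the median, these 10 values lay between 0.88 and 0.98. The points share libraries and depth, and such values are a ranking only.

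By position, in GENCODE vM21 on GRCm38, all 10 are protein-coding genes. Parvg spans 84324026 to 84342978 on chromosome 15 and Itgb2 77530252 to 77565708 on chromosome 10. The 3 alpha partners of beta2 lie on chromosome 7, Itgam at 128062640 to 128118491, Itgax beside it at 128129547 to 128150657 and Itgal at 127296260 to 127335138. Itga4 lies at 79255426 to 79333123 on chromosome 2, Fermt3 at 6998958 to 7019469 on chromosome 19, Tln1 at 43531519 to 43562691 on chromosome 4, Vav1 at 57279100 to 57328031 on chromosome 17 and Icam1 at 21015985 to 21028817 on chromosome 9. Exons of Itga4, Fermt3, Tln1 and Icam1 overlap Cerkl, Trpt1, Creb3 and Gm47079 on the opposite strand, and an exon of Itgam overlaps Gm49368 on its own strand. Unless counting used strand, and for Itgam in any case, reads in such stretches may belong to either gene, so these 5 values are uncertain.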

How the data were processed

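The authors deposited RPKM values, in 1 column per sample. Reads were mapped to mm10, as the submitters' processing notes name that build; per the labels' protocols, 0.5 µg of RNA went into TruSeq V2 libraries. Neither notes nor labels name an aligner, a counter, an annotation or the use of strand. Columns were matched to samples by title. Whole reads, recovered within 0.001 of a read for 100.0% of 143006 values above 0, gave the depths. Each row took the smallest whole numbers that fit, so a row above 0 in a single sample fits by construction. All 16164 rows above 0 in every sample fitted too. A factor common to all reads of a row is lost, so read numbers and depths may be too low.

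The test was limma 3.58.1 (R 4.3.3) on log2(RPKM + 1), 2-sided, with a mean-variance trend and no block. It covered the 12129 genes averaging 1 RPKM or more, with p-values adjusted by Benjamini-Hochberg and called under 0.05, and was tested on simulated data. Members and lists were chosen with earlier results of these data known. Of 226 different genes in the lists, 224 were found, 3 of them under an older symbol. Genes named in the text are the members, their paralogues and some partners, up to 4 genes of smallest p in each list, the first marker of each marker list, and the 5 genes closest to Parvg and to Itgb2. Alternatives covered pseudocount, low-value filter, scaling, replicate block, sample weights, trend, threshold, leaving out each sample and, added after seeing the data, voom on recovered reads. Protein sequences were not used here. One promoter sequence and one gene of the lists are not reported here.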

Additional observations from a re-analysis of the deposited data

Results flagged for a closer look

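Over 50 groups of 4 values, 3 held a sample whose gap to its neighbour took up most of the group's range; chance alone gives about 1 in 20. Itgax stood at 16.2 RPKM in MSC replicate 1, against 10.1 to 10.9 in the other MSC samples. Parvg stood at 10.98 RPKM in the same sample, against 8.74 to 9.06 in the other MSC samples. Without MSC replicate 1 the log2 fold changes, MSC over vehicle, were 0.72 for Itgax and 0.59 for Parvg. Tln1 stood at 63.9 RPKM in vehicle replicate 3, against 56.1 to 56.9 in the other vehicle samples.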

How the results depend on the processing

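The log2 fold changes of the 10 genes moved by less than the spread between replicates in all 170 values from the alternatives. Most of these values could not have moved further, so nothing is read from that count. Leaving out a single sample cannot shift a value by that much, and filter, trend and replicate block leave it unchanged. Parvg ran from 0.57 to 0.74 and Itgal from 0.53 to 1.03. The count of members that passed was 0, and it was 1, Parvg, with median-of-ratios scaling, quantile normalization, sample weights or an adjusted p of 0.1; leaving out single samples gave 0 to 1. Of all genes, 28 passed (3 higher, 25 lower). That count was 10 with a pseudocount of 0.1, 1 with no filter, 72 with median-of-ratios scaling (11 higher, 61 lower), 129 with quantile normalization (33 higher, 96 lower), 73 with sample weights (27 higher, 46 lower) and 225 at an adjusted p of 0.1 (80 higher, 145 lower). Leaving out single samples gave 0 (without MSC replicate 4 or vehicle replicate 2) to 171 (without MSC replicate 3). The cause was not tested. Pathway genes passing numbered 0, but 3 with quantile normalization, 2 with sample weights and 5 at an adjusted p of 0.1. Members free of overlap relative to the pan-leukocyte level numbered 2 (Parvg and Itga4), 1 with 5 reference genes (Parvg), and 2 others with Ptprc alone (Itgal and Itgax). Leaving out single samples gave 2 to 4. The share of all genes free of overlap on that scale was not computed, so nothing is read from these counts.

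With the replicate block 0 genes and 0 members passed. Deviations from the group means, correlated over all genes tested between same-numbered samples, gave 0.14, -0.0028, -0.33 and -0.12. The labels state no pairing, and such values cannot settle whether same-numbered samples share a batch or day.

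Small fold changes changed sign, those of 2 members among them. Icam1 was at -0.025 with median-of-ratios scaling and -0.016 with quantile normalization or voom, and at -0.067 to 0.12 over left-out samples. Itga4 was at -0.0090 with median-of-ratios scaling and -0.025 with sample weights, and at -0.016 to 0.078 over left-out samples. Itgb1 was at -0.039 with either scaling, -0.028 with sample weights and -0.027 with voom, and at -0.066 to 0.082 over left-out samples. Itgb3 was at 0.11 with sample weights and at -0.19 to 0.074 over left-out samples. Over left-out samples Icam2 ran from -0.057 to 0.30, Parvb from -0.043 to 0.25 and Vav3 from -0.10 to 0.038. With 4 samples a group, the spread between samples sets the precision of each value, and depth limits the genes under 1 RPKM, which were not tested.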
